A study of Mus musculus with 16 samples.

Results

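The leukocyte integrins described here are the products of 7 genes, Itgb2, Itgal, Itgam, Itgax, Itgb7, Itgae and Itga4, which were followed in epidermal cells of the mouse footpad. They were taken by symbol from the 50600 genes of the count table, and all 7 passed the minimum of 10 counts in total, as did 22155 genes in all. Female C57/B6J mice had been given, for 3 wk from 5 wk of age, either a purified diet low in ligands of the aryl hydrocarbon receptor (labelled SYNTH, AhR-poor diet) or that diet with 200 ppm of indole-3-carbinol (labelled I3C, I3C diet), which gives rise to such ligands. The footpad injection was 50 μl of PBS as vehicle or the same volume with 50 μg of papain, which is a protease and an allergen. Epidermal cells were collected at 6 hr. The 16 libraries form 4 groups of 4, and values are given below in a fixed order within each group, T108, T109, T110 and T111 for I3C vehicle, T106, T113, T114 and T115 for I3C papain, T100, T101, T102 and T103 for AhR-poor vehicle, and T104, T105, T107 and T112 for AhR-poor papain. No group carried a transgene or deletion. Mice on a diet were housed together, so diet and cage cannot be told apart. The cells were a suspension of the whole epidermis after dispase, not a sort of leukocytes, so each value is the level of a transcript in a mixture made up mainly of keratinocytes.

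Integrins are adhesion receptors made of an alpha and a beta chain, and a chain reaches the cell surface only when paired. The beta 2 chain, encoded by Itgb2, pairs on leukocytes with alpha L (Itgal, giving LFA-1), alpha M (Itgam, giving Mac-1 or CD11b) or alpha X (Itgax, CD11c), and these receptors hold leukocytes to ICAM proteins on endothelium and other cells and, for the alpha M form, bind complement fragments. The beta 7 chain (Itgb7) pairs with alpha E (Itgae, CD103), which binds E-cadherin and holds T cells among epithelial cells, or with alpha 4 (Itga4), which binds MAdCAM-1. Alpha 4 also pairs with beta 1 and then binds VCAM-1 and fibronectin. In resting mouse epidermis, the resident leukocytes are Langerhans cells, which carry alpha X, and dendritic epidermal T cells, a gamma delta T cell population that carries alpha E.

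The genes lie on 5 chromosomes of GRCm38. Itgal (chr7:127296260-127335138), Itgam (chr7:128062640-128118491) and Itgax (chr7:128129547-128150657) all lie on the plus strand of chromosome 7, with Itgam and Itgax next to each other, while Itgb2 lies at chr10:77530252-77565708, plus strand, Itgb7 at chr15:102215995-102231944, minus strand, Itgae at chr11:73090583-73147446, plus strand, and Itga4 at chr2:79255426-79333123, plus strand. Of the exonic bases of Itgam, 3450 of 5024 are shared on the same strand with the gene model Gm49368, which was assigned 1 count in all 16 libraries together, so the level of Itgam depends on how shared reads were treated and is uncertain. Itga4 shares 1124 exonic bases with Cerkl on the opposite strand, and Cerkl had at most 5 counts in a library.

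The 250 bases before the start of Itgam and of its neighbour Itgax are shown because the levels of these genes moved apart after papain (below). The sequences are those of RefSeq on GRCm38.p6, whose table held 4 of the 7 genes (Itgb7, Itgam, Itgax and Itga4, with Itgb2, Itgal and Itgae not among them). Capitals mark matches to GAGGAA, the core recognised by the myeloid factor PU.1, read on either strand. The other motif searched was TGTGGT, the core bound by RUNX factors, also on both strands.
Itgam, chr7:128062390-128062639, plus strand: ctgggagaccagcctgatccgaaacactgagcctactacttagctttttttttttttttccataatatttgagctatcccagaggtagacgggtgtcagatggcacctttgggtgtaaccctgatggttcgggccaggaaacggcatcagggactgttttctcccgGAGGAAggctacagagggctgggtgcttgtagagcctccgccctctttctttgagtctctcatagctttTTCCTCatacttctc
Itgax, chr7:128129300-128129549, plus strand: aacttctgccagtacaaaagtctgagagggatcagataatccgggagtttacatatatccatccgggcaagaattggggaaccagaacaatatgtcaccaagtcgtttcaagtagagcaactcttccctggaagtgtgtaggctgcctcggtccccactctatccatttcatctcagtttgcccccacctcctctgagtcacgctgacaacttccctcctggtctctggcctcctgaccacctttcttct
GAGGAA occurred at 2 places before Itgam, 84 bases upstream of the start on the plus strand and 15 bases upstream on the minus strand. Neither motif occurred in the window of Itgax or of Itgb7, and that of Itga4 held 1 match to TGTGGT, 60 bases upstream on the minus strand. Of 32851 promoter windows of the same length, 23.3% held GAGGAA, 14% held TGTGGT and 3.21% held both. A match of 6 letters is a description of the sequence and not evidence that a factor binds there.

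Library totals ranged from 22500821 to 51844375 counts, and the members had between 19 and 2648 counts in a library. Levels are given as CPM, each gene's counts scaled to a common library total with the TMM factors of edgeR, and comparisons come from the quasi-likelihood F test of edgeR in a model with a mean for each group. Calls required a log2 fold change beyond 1 in either direction together with an adjusted p (Benjamini-Hochberg, over all 22155 genes) under 0.01. Each mean is followed by the SD over 4 libraries. The two-sided exact permutation test of 4 libraries against 4 cannot give a p below 0.0286, the value reached by every pair of groups that do not overlap. Keratinocyte markers (6 genes) summed to between 40580 and 66020 CPM in every library, against 50.2 CPM for the highest value of any member.

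Itgb2, the beta chain common to the alpha L, alpha M and alpha X receptors, had its highest level after papain on the AhR-poor diet and its lowest with vehicle on the I3C diet. With vehicle, it stood at 1.38, 1.30, 1.41 and 1.59 CPM on the I3C diet and at 3.92, 5.0, 4.28 and 4.29 CPM on the AhR-poor diet. After papain it stood at 4.19, 2.18, 1.43 and 1.12 CPM on the I3C diet and at 27.0, 50.2, 29.4 and 13.7 CPM on the AhR-poor diet. All 4 AhR-poor papain libraries lay above the other 12, T105 being the highest and T112 the lowest of the group, and the AhR-poor vehicle libraries lay above the I3C vehicle libraries without overlap. Among the I3C papain libraries, T106 stood above every I3C vehicle library and T115 below all of them. With papain Itgb2 was 13.4-fold higher in mice on the AhR-poor diet (log2 fold change 3.75, SE 0.40, adjusted p = 1.62e-05) and 6.88-fold higher after papain than after vehicle on the AhR-poor diet (log2 fold change 2.78, SE 0.38, adjusted p = 5.42e-05). With vehicle it was 3.08-fold higher on the AhR-poor diet, which was not called (log2 fold change 1.62, SE 0.41, adjusted p = 0.0470). That comparison was called without T106 (adjusted p = 0.00954), by DESeq2 (adjusted p = 3.22e-04) and when only the 8 vehicle libraries were fitted (adjusted p = 8.62e-05). Its papain response on the I3C diet did not pass (log2 fold change 0.66, SE 0.42, adjusted p = 0.260). Because the libraries were made from mixed cells, more cells with the transcript and more transcript in each cell cannot be told apart, for this gene or any other below. The study itself names Itgb2 and Itgb7 from these libraries, so their direction is not independent evidence.

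Itgal, the alpha chain of LFA-1, which holds T cells and other leukocytes to ICAM-1, followed the same order of groups with smaller distances. With vehicle, its levels were 1.72, 2.32, 2.12 and 1.62 CPM on the I3C diet and 3.60, 4.45, 3.19 and 2.39 CPM on the AhR-poor diet. After papain they were 4.43, 2.98, 2.11 and 2.21 CPM on the I3C diet and 12.8, 20.8, 13.4 and 4.22 CPM on the AhR-poor diet. In 3 of the 4 AhR-poor papain libraries Itgal was above all other libraries, while T112, at 4.22 CPM, lay within the range of both I3C papain and AhR-poor vehicle. It was called higher in the diet comparison with papain (log2 fold change 2.12, SE 0.37, adjusted p = 7.62e-04) and in the papain response on the AhR-poor diet (log2 fold change 1.91, SE 0.37, adjusted p = 7.92e-04). Neither call held when only the 8 libraries of the comparison were fitted, with adjusted p values of 0.0196 and 0.0139. Its diet difference with vehicle had a log2 fold change of 0.80 (adjusted p = 0.412) although the groups did not overlap, and its papain response on the I3C diet one of 0.59 (adjusted p = 0.263).

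Itgam, the alpha chain of Mac-1 on neutrophils, monocytes and macrophages, had levels that overlapped between the diets with vehicle and did not overlap with papain. It stood at 1.64, 2.27, 1.74 and 2.40 CPM with vehicle on the I3C diet and at 1.88, 2.44, 3.04 and 3.11 CPM with vehicle on the AhR-poor diet. With papain it stood at 3.34, 2.34, 5.14 and 3.76 CPM on the I3C diet and at 10.6, 20.3, 11.9 and 6.72 CPM on the AhR-poor diet. Every AhR-poor papain library was above all other libraries, and 3 of the 4 I3C papain libraries were above all 4 I3C vehicle libraries, with T113 within the range of vehicle. Itgam rose 4.73-fold after papain on the AhR-poor diet (log2 fold change 2.24, SE 0.30, adjusted p = 1.77e-05). The fold on the I3C diet was 1.81 (log2 fold change 0.86, SE 0.30, adjusted p = 0.0347), which was not called. With papain it was 3.40-fold higher on the AhR-poor diet (log2 fold change 1.76, SE 0.29, adjusted p = 3.07e-04), a call that was lost by a narrow margin (adjusted p = 0.01002) when only the 8 papain libraries were fitted. With vehicle the diets gave a log2 fold change of 0.38 (SE 0.30, adjusted p = 0.700). CD11b was also among the proteins that the paper stained to identify epidermal Langerhans cells, so Itgam was not taken as a marker of entering cells.

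Itgax, the alpha chain of CD11c found on Langerhans and other dendritic cells, had levels that separated the diets and overlapped between vehicle and papain. With vehicle its levels were 2.07, 3.59, 3.05 and 3.30 CPM on the I3C diet and 6.84, 8.05, 7.34 and 10.2 CPM on the AhR-poor diet. After papain they were 4.99, 2.50, 1.60 and 0.821 CPM on the I3C diet and 8.42, 10.5, 7.88 and 5.98 CPM on the AhR-poor diet. No AhR-poor library was as low as any I3C library, with 5.98 CPM in T112 against 4.99 CPM in T106, the highest of the I3C libraries. Within the AhR-poor diet the papain and vehicle groups overlapped and had means of 8.21 ± 1.88 and 8.10 ± 1.46 CPM (log2 fold change 0.02, SE 0.36, adjusted p = 0.980). The I3C papain libraries spread most in relation to their mean, from 0.821 CPM in T115 to 4.99 CPM in T106. Itgax was called higher on the AhR-poor diet with papain (log2 fold change 1.72, SE 0.38, adjusted p = 0.00443), a call that was lost without T113, T114, T104 or T105 (adjusted p = 0.0160, 0.0197, 0.0122 and 0.0142) and with only the 8 papain libraries (adjusted p = 0.0431). Without T106 its log2 fold change in that comparison was 2.34. With vehicle the difference was not called (log2 fold change 1.43, SE 0.37, adjusted p = 0.0522), but it was without T106 (adjusted p = 0.00254) or T115 (adjusted p = 0.00713), by DESeq2 (adjusted p = 0.00232) and with only the 8 vehicle libraries (adjusted p = 3.92e-04).

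Itgb7, the beta chain of the alpha E and the gut-homing alpha 4 receptors, was highest after papain on the AhR-poor diet, with a smaller range than Itgb2. With vehicle it stood at 2.93, 3.29, 3.07 and 2.79 CPM on the I3C diet and at 6.13, 5.22, 5.39 and 3.86 CPM on the AhR-poor diet. After papain it stood at 3.95, 2.69, 1.63 and 1.64 CPM on the I3C diet and at 10.5, 16.6, 9.31 and 5.63 CPM on the AhR-poor diet. The diets did not overlap with either injection, and T112 alone of the AhR-poor papain libraries fell within the range of AhR-poor vehicle. With papain Itgb7 was 4.25-fold higher on the AhR-poor diet (log2 fold change 2.09, SE 0.30, adjusted p = 1.09e-04). Its papain response on the AhR-poor diet narrowly missed the call (log2 fold change 1.04, SE 0.29, adjusted p = 0.0106), and was called without T106, T114, T115 or T112 (adjusted p = 0.00392, 0.00814, 0.00801 and 0.00121), with RLE factors (adjusted p = 0.00901), with the filterByExpr filter (adjusted p = 0.00854) and by DESeq2 (adjusted p = 0.00121). The log2 fold change was 0.77 between diets with vehicle (SE 0.30, adjusted p = 0.258) and -0.28 for papain on the I3C diet (SE 0.31, adjusted p = 0.522).

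Itgae, the alpha chain that binds E-cadherin, had group means from 4.52 to 9.40 CPM, a narrower range in relation to its level than any other member. With vehicle its levels were 5.08, 6.20, 4.65 and 2.13 CPM on the I3C diet and 6.76, 8.42, 5.93 and 6.49 CPM on the AhR-poor diet. After papain they were 7.77, 4.91, 4.25 and 3.16 CPM on the I3C diet and 11.8, 11.4, 9.18 and 5.28 CPM on the AhR-poor diet. The groups overlapped in all 4 comparisons, and none was called for Itgae. The difference between diets with papain came nearest, at 1.87-fold (log2 fold change 0.91, SE 0.32, adjusted p = 0.0533), and log2 fold changes in the other 3 lay between 0.15 (papain, I3C diet) and 0.61 (diet, vehicle).

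Itga4, the alpha chain that binds VCAM-1 and MAdCAM-1, had papain responses of opposite sign on the 2 diets. With vehicle it stood at 2.81, 2.01, 1.99 and 1.02 CPM on the I3C diet and at 1.99, 2.22, 2.32 and 1.64 CPM on the AhR-poor diet, so the diets overlapped. With papain it stood at 1.17, 1.12, 0.714 and 0.472 CPM on the I3C diet and at 2.78, 6.20, 3.94 and 2.34 CPM on the AhR-poor diet, where every library was above every I3C papain library and above every AhR-poor vehicle library. On the I3C diet 3 of the 4 vehicle libraries were above all papain libraries, with T111 below T106 and T113. The diets with papain differed 4.41-fold (log2 fold change 2.14, SE 0.35, adjusted p = 2.12e-04), which was called, and the diets with vehicle had a log2 fold change of 0.06 (SE 0.33, adjusted p = 0.985). Neither papain response was called, with log2 fold changes of 0.90 on the AhR-poor diet (SE 0.32, adjusted p = 0.0378) and -1.18 on the I3C diet (SE 0.35, adjusted p = 0.0129). The lower level on the I3C diet was called by DESeq2 (adjusted p = 0.00342) and without T111, T105 or T112 (adjusted p = 0.00340, 0.00568 and 0.00923).

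**Figure D1:**
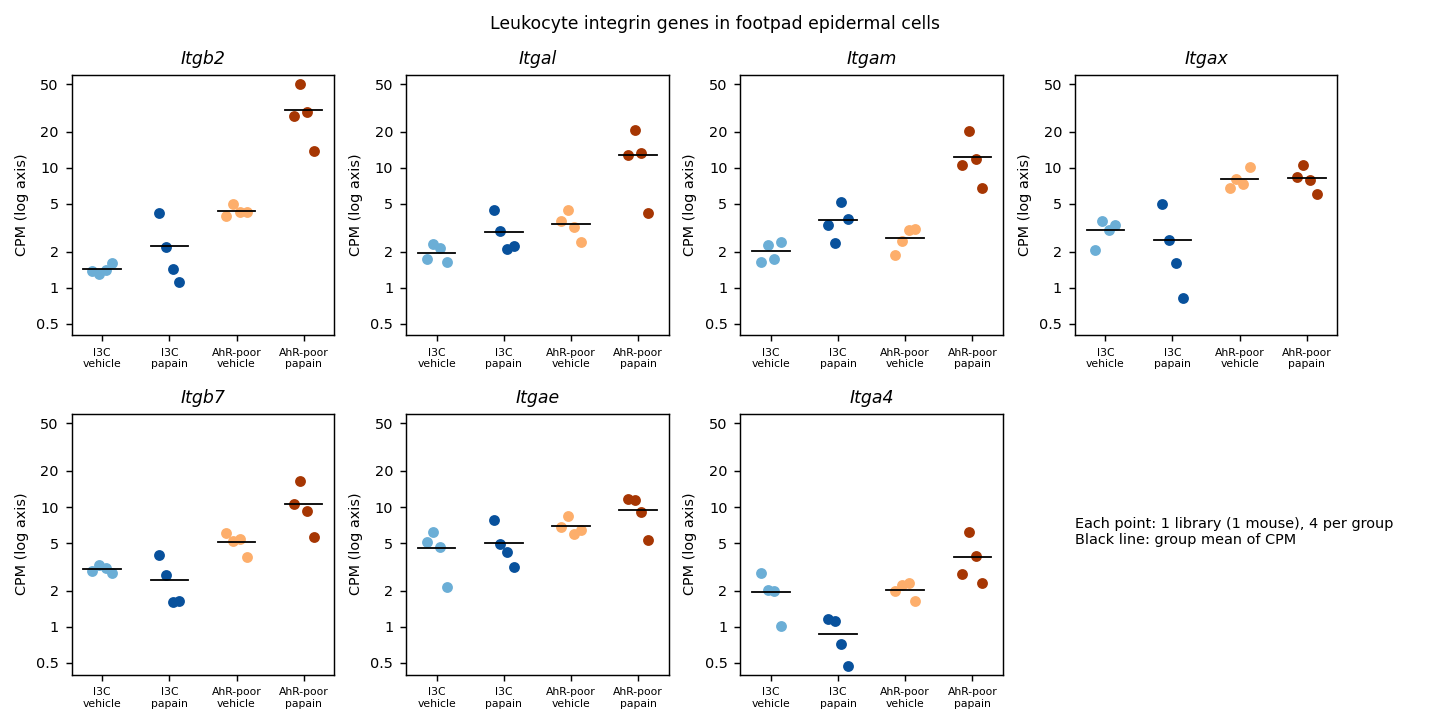
CPM of the 7 integrin genes in each library (points, log axis, 4 libraries per group) with the group mean (line). The AhR-poor papain libraries stand above the other 12 for Itgb2 and Itgam, the I3C and AhR-poor diets separate for Itgax whichever the injection, and the groups overlap for Itgae.

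The comparison of the diets with papain asked which genes differed between mice on the 2 diets once the allergen was given, and 6 of the 7 members were higher on the AhR-poor diet. Itgb2 differed most, followed by Itga4, Itgal, Itgb7, Itgam and Itgax, with log2 fold changes from 1.72 to 3.75, and Itgae was the member not called. Of all genes tested, 7.15% were called higher and 0.0993% lower in that comparison. The median log2 fold change was 2.09 over the members and 0.01 over all genes. The libraries of 5 members did not overlap between the diets (Itgb2, Itgb7, Itgam, Itgax and Itga4), against 12.5% of all genes higher in this way. The count of 6 became 3 (Itgb2, Itgb7 and Itga4) when only the 8 papain libraries were fitted.

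With vehicle, the diets showed the same sign for all 7 members, and none was called. Log2 fold changes ran from 0.06 for Itga4 to 1.62 for Itgb2, with a median of 0.77 against -0.01 over all genes. Of all genes, 1.59% were called higher on the AhR-poor diet and 0% lower. Itgb2, Itgb7, Itgal and Itgax had AhR-poor libraries all above the I3C libraries, as 6.45% of all genes did. At an unadjusted p below 0.05 there were 3 members, and DESeq2 called 2, Itgb2 and Itgax.

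Papain on the AhR-poor diet raised Itgb2, Itgal and Itgam, the beta 2 chain and its partners of T cells and myeloid cells, with log2 fold changes from 1.91 to 2.78. Itgb7, Itga4, Itgae and Itgax were not called and had values from 0.02 to 1.04. Of all genes tested, 6.04% were called higher and 2.42% lower, and the median was 1.04 over the members and -0.00438 over all genes. Itgb2, Itgam and Itga4 had papain libraries all above the vehicle libraries, as 17% of all genes did. The comparison shares its papain libraries with the comparison of the diets with papain, and its vehicle libraries with that of the diets with vehicle, so these 3 are not independent of each other.

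On the I3C diet no member was called after papain, while 3.69% of all genes were called higher and 5.29% lower. Of the log2 fold changes, 4 were above 0 (Itgam, Itgb2, Itgal and Itgae) and 3 below (Itgb7, Itgax and Itga4), from -1.18 for Itga4 to 0.86 for Itgam, with a median of 0.15 against -0.04 over all genes. In none did every papain library lie above every vehicle library, as was the case for 16.2% of all genes. At an unadjusted p below 0.05 there were 2 members, Itgam and Itga4, and DESeq2 called 1, Itga4, as lower.

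Whether the difference between the diets was itself changed by papain was tested with the interaction term, and no member passed, as did 0.0181% of all genes in the direction of a larger difference with papain and 0% in the other. The estimates were above 0 for all 7 members. Itgb2 (log2 2.12, SE 0.56, adjusted p = 0.134) and Itga4 (log2 2.08, SE 0.48, adjusted p = 0.0689) had the largest, and DESeq2 called these 2, each with an adjusted p of 0.00200. At an unadjusted p below 0.05 there were 5 members, these with Itgam, Itgb7 and Itgal, whose estimates were 1.39, 1.32 and 1.32. For Itgax and Itgae the estimates were 0.30 (SE 0.53) and 0.30 (SE 0.45).

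**Figure D2:**
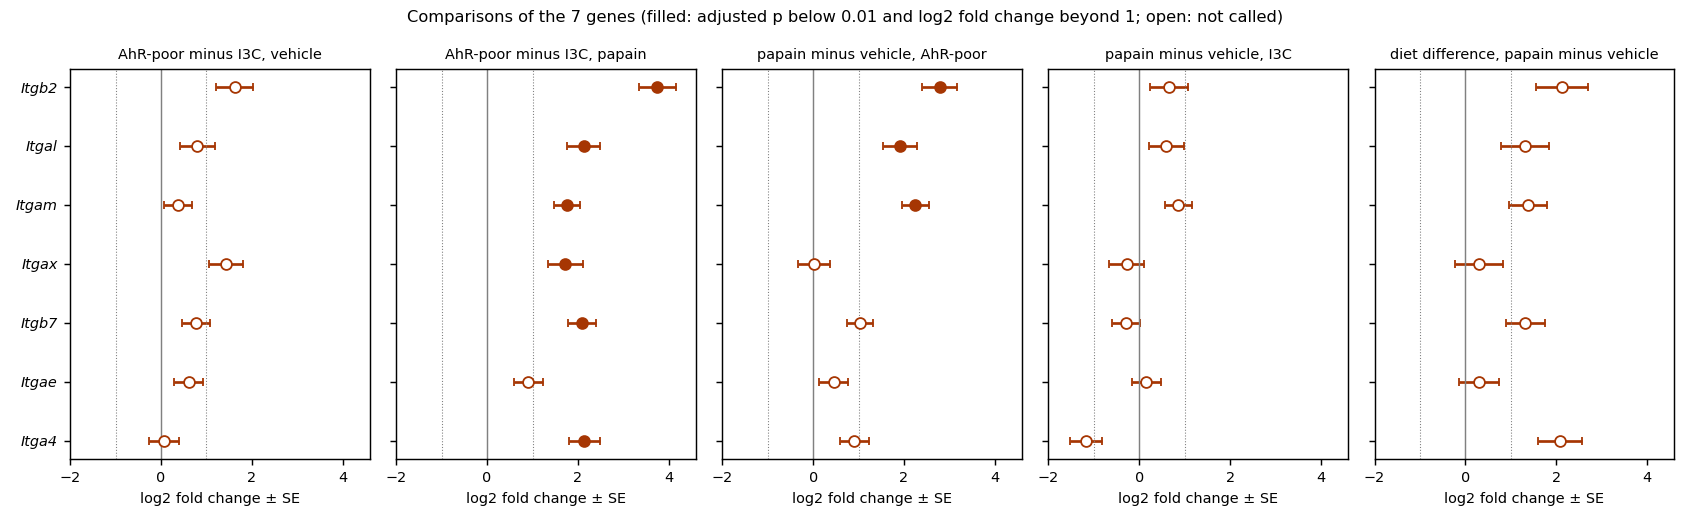
Log2 fold change with its standard error for each gene (vertical axis) in the 4 comparisons and the interaction (panels), filled where the gene was called. Filled points are seen for 6 genes in the diet comparison with papain and for 3 genes, not Itgax (0.02), in the papain response of AhR-poor mice.

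The order of the genes by level, compared as CPM per kilobase of exonic length, changed with the group. With vehicle on the I3C diet Itgb7 (1.09 ± 0.0768 CPM per kilobase) and Itgae (0.986 ± 0.375) led and were not separated beyond their spread. After papain on the AhR-poor diet Itgb2 led at 9.86 ± 4.95 CPM per kilobase, followed by Itgb7 at 3.80 ± 1.65, and in each of these 4 libraries Itgb2 was above Itgb7 although the ranges overlapped. Itga4 was the lowest in every group, between 0.0622 ± 0.0239 and 0.273 ± 0.124 CPM per kilobase, and did not overlap with the gene next above it. With vehicle on the AhR-poor diet Itgb7 (1.86 ± 0.341), Itgax (1.69 ± 0.305), Itgae (1.51 ± 0.233) and Itgb2 (1.43 ± 0.148 CPM per kilobase) overlapped from each to the next, and Itgam (0.521 ± 0.115) and Itgal (0.518 ± 0.131) stood below them as an overlapping pair. Some neighbours changed places when, in an alternative chosen after seeing the data, the length of the principal transcript was used, as Itgae and Itgb7 did in the I3C vehicle group (1.17 and 1.13 CPM per kilobase), and Itga4 stayed lowest.

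The make-up of the alpha chains that partner beta 2 differed between vehicle and papain on the AhR-poor diet. Of the summed CPM per kilobase of Itgal, Itgam and Itgax, Itgax held 46.9 ± 3.13% with vehicle on the I3C diet and 61.6 ± 4.57% with vehicle on the AhR-poor diet. After papain it held 28.3 ± 14.0% and 29.8 ± 6.50%. On the AhR-poor diet every papain library had a lower share of Itgax than every vehicle library, and on the I3C diet T106, the papain library with the highest share, overlapped with vehicle. The share of Itgam was 19.0 ± 3.20% with vehicle and 40.0 ± 2.96% with papain on the AhR-poor diet, again without overlap. For I3C mice it was 30.4 ± 3.20% in the vehicle and 45.2 ± 17.5% in the papain group, where T114 and T115 stood at 61.0% and 59.5% and T106 and T113 at 27.9% and 32.3%. Itgal held 22.7 ± 3.69%, 26.5 ± 5.24%, 19.4 ± 5.63% and 30.2 ± 6.87% in the I3C vehicle, I3C papain, AhR-poor vehicle and AhR-poor papain groups, which overlapped on each diet. These shares rest on the uncertain level of Itgam.

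The beta 2 chain itself did not keep a fixed ratio to its partners. Itgb2 per kilobase was 0.361 ± 0.0693 of the sum of its 3 partners with vehicle and 0.411 ± 0.149 with papain on the I3C diet, 0.529 ± 0.0531 with vehicle on the AhR-poor diet, and 1.56 ± 0.149 with papain on that diet. The AhR-poor papain libraries, from 1.39 to 1.75, were all above the other 12. The ratio of Itgb2 to Itgb7 per kilobase was 0.430 ± 0.0654, 0.778 ± 0.144, 0.795 ± 0.185 and 2.54 ± 0.315 in the same order of groups, and neither the diets nor the injections overlapped in any of the 4 comparisons. Itgb7 per kilobase was 1.27 ± 0.602 times Itgae with vehicle and 0.810 ± 0.122 times Itgae with papain on the I3C diet, and 1.25 ± 0.287 and 1.83 ± 0.407 times on the AhR-poor diet. With papain the diets did not overlap in that ratio, and with vehicle they did.

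**Figure D3:**
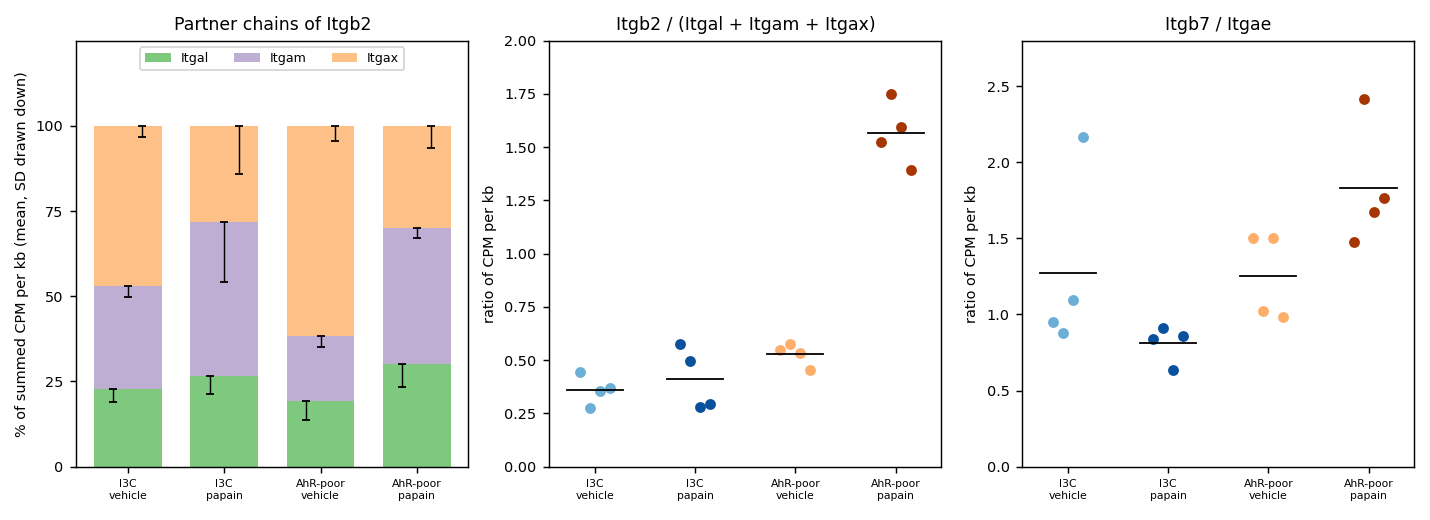
Left, share of Itgal, Itgam and Itgax in their summed CPM per kilobase (bars, group means with the SD drawn downward from the top of each part). Middle and right, the ratio of Itgb2 to these 3 genes and of Itgb7 to Itgae in each library (points) with the group mean (line). Itgax holds the largest part in both vehicle groups, and the Itgb2 ratio of the AhR-poor papain libraries lies above 1 in all 4.

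General leukocyte genes moved with the members. Ptprc, which encodes the pan-leukocyte phosphatase CD45, had 7.37 ± 0.910 CPM with vehicle and 9.81 ± 4.66 with papain on the I3C diet, and 15 ± 1.31 and 45.5 ± 22.7 CPM on the AhR-poor diet. Of 8 pan-leukocyte genes, 7 were called higher on the AhR-poor diet with papain (7.15% of all genes) and all 8 after papain on that diet (6.04%), with none called between the diets with vehicle (1.59%) and 1 called after papain on the I3C diet (3.69%). That 1 gene, Arhgdib, also stood out by its level, at 278 ± 23.8 CPM in I3C papain and 263 ± 24.6 CPM in AhR-poor papain, and its papain response was alike in size on the I3C diet (log2 1.41) and the AhR-poor diet (log2 1.37). The mean log2 CPM of the 8 genes ranged over 2.24 to 2.76 in I3C vehicle, 2.33 to 3.75 in I3C papain, 3.39 to 3.64 in AhR-poor vehicle and 4.45 to 6.11 in AhR-poor papain.

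Each member was therefore also expressed as its log2 CPM minus that mean in the same library, as a description without a test. On this scale Itgb2 was higher on the AhR-poor diet by 0.54 with vehicle and by 1.36 with papain, and higher after papain by 0.80 on that diet, and in all 3 the groups did not overlap. It was the 1 member higher without overlap in each of these comparisons, as were 1.41%, 1.82% and 1.42% of all genes. On the I3C diet Itgb2 relative to the leukocyte genes differed by -0.01 between papain and vehicle, with overlap.

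The members lower without overlap after papain on the AhR-poor diet, relative to the leukocyte genes, were Itgax (-1.82), Itgae (-1.44), Itga4 (-1.03) and Itgb7 (-0.89 on the log2 scale). They were 4 of 7, and 79.8% of all genes were lower in this way, the leukocyte genes themselves being higher there. With papain, Itgal (-0.44) and Itgae (-1.49) were lower without overlap on the AhR-poor diet, 2 of 7 beside 83.5% of all genes, and with vehicle Itgam was (-0.68), 1 of 7 beside 64.3%. On the I3C diet Itga4 (-1.59), Itgax (-1.0) and Itgb7 (-0.84) were lower after papain, 3 of 7 beside 16.2%. These values move with the genes taken as the denominator. With Ptprc alone, Itgb2 was 1.59 higher on the AhR-poor diet with papain and 1.18 higher after papain on that diet, and it was 1.0 higher between the diets with papain when Arhgdib was left out, a choice made after seeing the data.

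**Figure D4:**
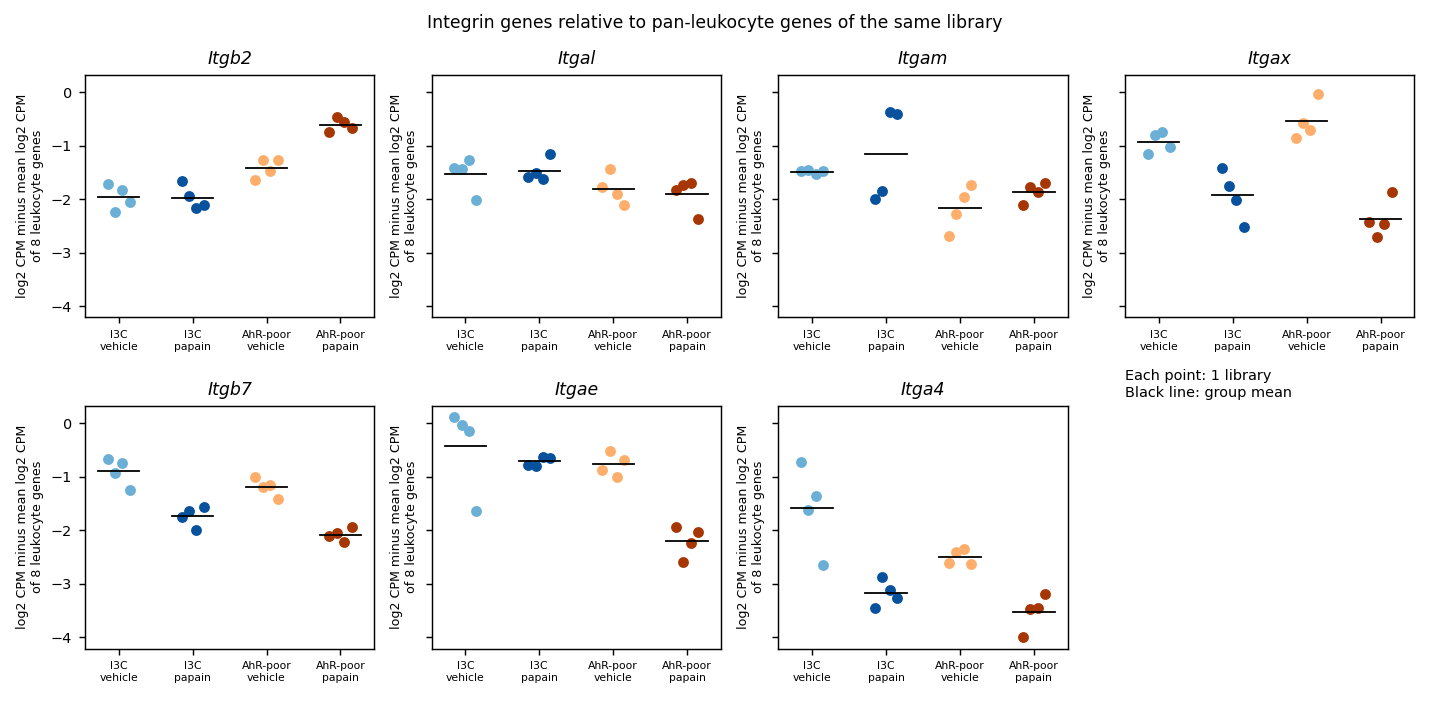
Log2 CPM of each member minus the mean log2 CPM of 8 pan-leukocyte genes in the same library (points) with the group mean (line). Itgb2 in the AhR-poor papain libraries lies between -0.75 and -0.46, above all others, while Itgb7, Itgax and Itga4 lie lower with papain than with vehicle on both diets.

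The most abundant counter-receptors of these integrins were not called between the diets, with log2 fold changes with papain of -0.32 for Cdh1 (E-cadherin, bound by alpha E beta 7), 0.20 for Icam1 (bound by the beta 2 integrins) and -0.11 for F11r (the junction protein JAM-A). Icam1 stood at 256 ± 137, 229 ± 14.7, 219.5 ± 85.7 and 263 ± 38.0 CPM in I3C vehicle, I3C papain, AhR-poor vehicle and AhR-poor papain. Thy1, a surface protein bound by Mac-1, rose after papain on the AhR-poor diet (log2 fold change 1.25, SE 0.13, adjusted p = 1.03e-06) and had a log2 fold change of 0.96 on the I3C diet (adjusted p = 9.30e-06), under the minimum fold. Of the 13 ligand genes tested, 7 were called higher on the AhR-poor diet with papain (7.15% of all genes), 3 with vehicle (1.59%), 6 after papain on the AhR-poor diet (6.04%) and 0 on the I3C diet (3.69%), and none was called lower. The medians were 2.56, 0.93, 1.25 and 0.32. Among the ligands called with papain, chosen after their values were seen, Vcam1, the endothelial ligand of alpha 4 beta 1, stood at 0.548 ± 0.218 CPM on the I3C and 3.28 ± 0.943 CPM on the AhR-poor diet (log2 fold change 2.56, SE 0.30, adjusted p = 8.21e-06). C3, whose fragment iC3b is bound by Mac-1, stood at 0.970 ± 0.815 and 47.8 ± 20.4 CPM (log2 fold change 5.59, SE 0.47, adjusted p = 2.42e-06), and Fn1 (fibronectin) at 5.29 ± 4.50 and 116 ± 38.5 CPM (log2 fold change 4.46, SE 0.58, adjusted p = 1.21e-04). Madcam1, the ligand of alpha 4 beta 7, was not tested and had no count in either AhR-poor group.

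Genes that switch integrins to their binding state from inside the cell were called in part. Of 14, 5 were called higher on the AhR-poor diet with papain, beside 7.15% of all genes, 0 with vehicle, beside 1.59%, 4 after papain on the AhR-poor diet, beside 6.04% of all genes, and 1 on the I3C diet, beside 3.69%, with medians of 0.33, 0.26, 0.65 and 0.14. The most abundant, Tln1 (talin, which binds the beta chain tail), Rap1b (a GTPase upstream of talin), Stk4 and Cyth1, had log2 fold changes from -0.28 to 0.50 between the diets with papain. Tln1 stood at 217 ± 39.9 CPM in I3C vehicle and 186 ± 16.9 CPM in AhR-poor papain. The 5 called, named after their values were seen, were Apbb1ip (RIAM, log2 2.53), Fyb (ADAP, 2.41), Cytip (1.83), Fermt3 (kindlin-3, the haematopoietic kindlin, 1.64) and Rasgrp2 (an exchange factor for Rap1, 1.57), with adjusted p values of 1.68e-04, 1.12e-04, 4.27e-05, 1.11e-04 and 0.00534.

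Kinases and adaptors that act downstream of bound integrins in leukocytes were mostly called where papain met the AhR-poor diet. Of 10 genes, 7 were called higher on the AhR-poor diet with papain (median log2 3.05), 8 after papain on that diet (median 2.33), 1 after papain on the I3C diet (median 0.60) and 0 between the diets with vehicle (median 0.96). Of all genes, 7.15%, 6.04%, 3.69% and 1.59% were called higher in the same order of comparisons. Tyrobp, the adaptor DAP12, stood at 1.91 ± 1.16 CPM on the I3C and 27.1 ± 15.6 CPM on the AhR-poor diet after papain (log2 fold change 3.81, SE 0.50, adjusted p = 1.04e-04). Syk, the kinase that docks to such adaptors, rose after papain on both diets, by log2 2.21 (SE 0.22, adjusted p = 2.62e-06) on the AhR-poor and 1.58 (SE 0.22, adjusted p = 3.34e-05) on the I3C diet. Ptk2b (the focal adhesion kinase relative PYK2) and Plcg2 had log2 fold changes of -0.39 and -0.27 between the diets with papain and were not called.

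The 19 other integrin subunits, most of them chains of keratinocytes and connective tissue cells, had medians near those of all genes between the diets, at -0.02 with papain and -0.10 with vehicle. Itgb4 and Itga6, which form the hemidesmosome integrin of basal keratinocytes, and Itga3 and Itgb1, which form a laminin receptor, were the most abundant, with log2 fold changes with papain of -0.42, -0.47, -0.24 and -0.17, none called. Itgb1, which is also the second partner of alpha 4, stood, with papain, at 326 ± 74.4 CPM on the I3C and 289.7 ± 35.1 CPM on the AhR-poor diet. The 4 of 19 called higher on the AhR-poor diet with papain, named after their values were seen, were Itga9 (log2 4.57, adjusted p = 3.93e-05), Itga11 (3.49, adjusted p = 6.38e-04), Itgb3 (3.29, adjusted p = 2.17e-06) and Itga1 (1.65, adjusted p = 0.00123). With vehicle, 2 were called, Itga9 and Itga11. After papain, 3 were called higher on the AhR-poor diet (Itga5, Itga1 and Itgb3) and 2 on the I3C diet (Itga5 and Itgb6). Of all genes, 7.15% and 1.59% were called higher on the AhR-poor diet with papain and with vehicle. After papain, 6.04% and 3.69% were called higher on the AhR-poor and I3C diets. Itgad, the fourth partner of beta 2, was near the detection floor, with group means of 0.0394 to 0.122 CPM.

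Markers of the resident leukocytes of the epidermis had positive median log2 fold changes between the diets, 1.41 with vehicle and 1.23 with papain for Langerhans cells and 0.74 and 1.28 for dendritic epidermal T cells. None of the 5 Langerhans cell markers was called in any comparison. Cd207 encodes langerin and was taken here as a marker of Langerhans cells, and whether other cells added to it was not tested. With vehicle it stood at 17.9 ± 5.76 and 55.2 ± 8.54 CPM on the I3C and AhR-poor diets (log2 fold change 1.62, SE 0.34, adjusted p = 0.0174). With papain it stood at 13.9 ± 8.47 and 33.7 ± 5.53 CPM (log2 fold change 1.27, SE 0.34, adjusted p = 0.0185). The paper found no significant diet difference in epidermal Langerhans cells, by imaging of ear skin or by flow cytometry of the footpad before injection. The 5 Langerhans cell markers, which include the class II genes Cd74, H2-Aa, H2-Ab1 and H2-Eb1, summed to 179 to 448 CPM in I3C vehicle, 187 to 589.9 in I3C papain, 722 to 822 in AhR-poor vehicle and 709 to 921 CPM in AhR-poor papain, so the diets did not overlap. The 7 dendritic epidermal T cell markers summed to 12.4 to 23.7, 11.2 to 36.1, 19.6 to 34.5 and 22.6 to 67.2 CPM in the same order, with overlap between the diets. Of them 1 of 7 was called between the diets with papain, beside 7.15% of all genes called higher. It was Cd3d, named after its value was seen (log2 1.52, adjusted p = 0.00777). No marker of either list was at 0 in a whole group.

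Markers of leukocytes that enter from blood and of dermal cells also differed between the groups, in part in comparisons where no member was called. Their counts, here and in the next paragraph, stand beside 7.15% of all genes called higher between the diets with papain and 1.59% with vehicle. After papain, the shares of all genes were 6.04% on the AhR-poor and 3.69% on the I3C diet. The 9 neutrophil markers summed to 0.546 to 1.02 CPM in I3C vehicle, 20.9 to 29.7 in I3C papain, 2.97 to 3.34 in AhR-poor vehicle and 62.0 to 385 CPM in AhR-poor papain. The sums did not overlap between vehicle and papain on either diet, and 7 of 9 were called higher on the AhR-poor diet with papain and 7 after papain on that diet. Cxcr2, the receptor of neutrophil chemokines, made up most of the sum in I3C papain (24.2 ± 4.25 CPM) and was not called between the diets (log2 fold change 0.50, SE 0.23, adjusted p = 0.143), while Csf3r, the G-CSF receptor, stood at 0.739 ± 1.05 and 57.8 ± 38.9 CPM. Mmp8 and Camp were at 0 in all I3C vehicle libraries, and Ngp and Camp in all I3C papain libraries. Of the 12 monocyte and macrophage markers, 11 were called with papain and 5 with vehicle between the diets, and 8 and 2 after papain on the AhR-poor and I3C diets. Fcgr1, a receptor for antibody on these cells, was at 0 in all I3C vehicle libraries. The list is not confined to cells that enter from blood, as it includes Csf1r, whose product Langerhans cells also need. Csf1r had no called papain response, with log2 fold changes of -0.15 on the AhR-poor and -0.50 on the I3C diet.

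The 7 mast cell markers summed to 0.0816 to 0.153, 0.285 to 6.04, 1.61 to 5.45 and 30.2 to 268 CPM in the same order, and 7 of 7 were called between the diets with papain. Hdc made up most of the sum in AhR-poor papain (131 ± 92.3 CPM), against 4.49 ± 2.24 CPM for the mast cell protease gene Mcpt4, and Fcer1a and Ms4a2 were at 0 in both I3C groups. After papain on the AhR-poor diet Hdc had the highest log2 fold change of the list (6.88), whose median was 2.89. The sum there is mainly a measure of Hdc, and which cells carried it was not tested. The 8 dermal fibroblast markers were all called higher on the AhR-poor diet with either injection and summed to 9.55 to 13.5, 2.28 to 11.6, 96.6 to 173 and 259 to 648 CPM. The 8 endothelial markers were likewise all called between the diets with either injection and summed to 0.804 to 2.91, 0.742 to 2.31, 13.7 to 39.8 and 28.7 to 69.6 CPM. The 5 red blood cell markers, all called between the diets with either injection, summed to 0.258 to 3.05, 0.400 to 17.2, 73.2 to 155 and 267 to 1254 CPM. T112, the lowest AhR-poor papain library for all 7 members, also had the lowest sum of that group for the Langerhans cell, dendritic epidermal T cell, neutrophil, mast cell, fibroblast and red blood cell lists. The same held for the pan-leukocyte list (402.5 CPM), the B cell list and the monocyte and macrophage list. It did not hold for the endothelial list, where T107 was lowest, or the alpha beta T cell list, where T105 was. T106, the highest I3C papain library for 6 of 7 members, had the highest sum of its group for the Langerhans cell, dendritic epidermal T cell, neutrophil, mast cell, fibroblast, red blood cell and endothelial lists. The alpha beta T cell sum was highest in T113 and the B cell sum in T114. T106 was the lowest for the monocyte and macrophage list, whose sum rested mostly on 1 gene. The pan-leukocyte sum was highest in T113, but Arhgdib, at 278 ± 23.8 CPM in I3C papain, made up most of it. The mean log2 CPM of the 8 pan-leukocyte genes was highest in T106 within that group, at 3.75. Of 8 alpha beta T cell markers 1 was called between the diets with papain (Trbc1), and of 4 B cell markers 1 was (Cd79b). The alpha beta T cell sums overlapped, at 37.0 to 44.5 CPM in I3C papain and 36.1 to 42.8 CPM in AhR-poor papain. Those of B cells were 0.385 to 1.11 and 0.897 to 3.60 CPM. After papain on the I3C diet Trbc2 was called higher (log2 1.29) and Cd5 lower (log2 -1.05), beside 3.69% and 5.29% of all genes. None of 6 keratinocyte markers was called in any comparison. The part of these cell types in the levels of the integrin genes was not tested.

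**Figure D5:**
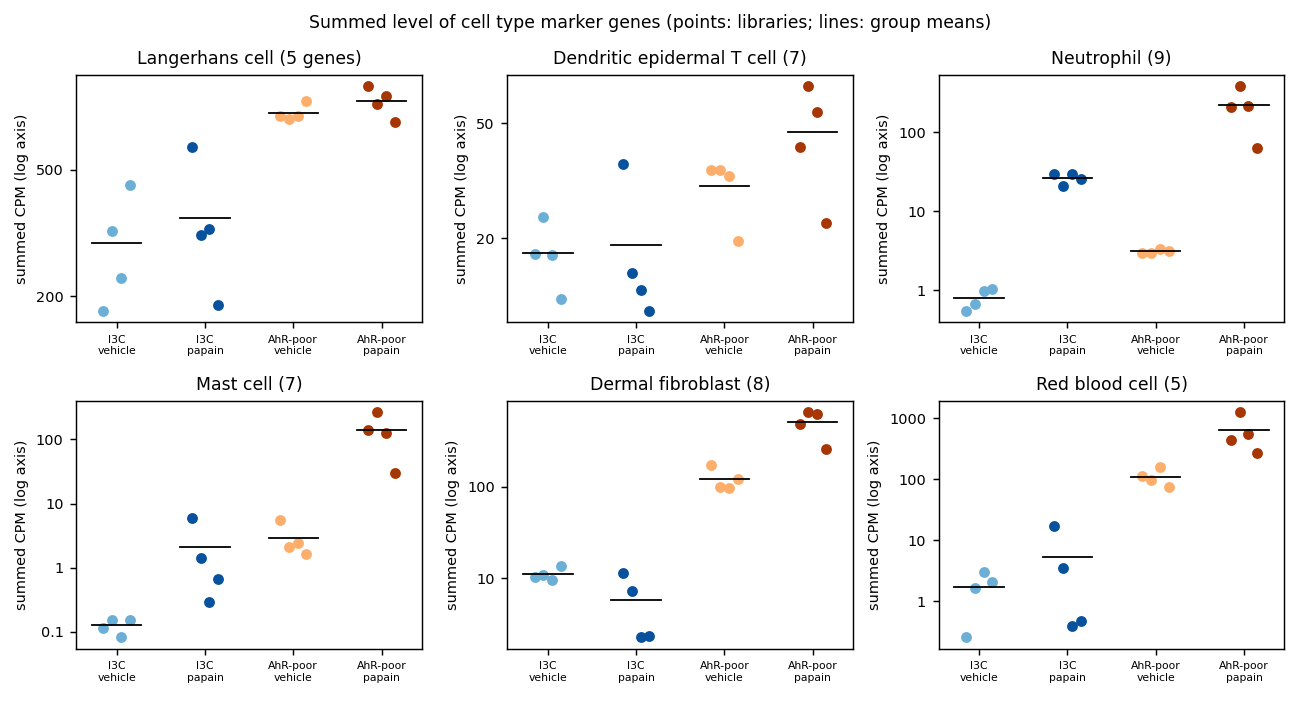
Summed CPM of the markers of 6 cell types in each library (points, log axis) with the group mean (line). The AhR-poor papain libraries have the highest sums of neutrophil, mast cell, fibroblast and red blood cell markers. Most of the mast cell sum in that group is Hdc. The Langerhans cell sums of the AhR-poor diet reach from 709 CPM upwards with either injection.

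Over the 16 libraries, the genes whose log2 CPM followed each member most closely were found among 13019 genes with at least 1 CPM on average. These correlations describe libraries that share groups and depth and carry no test. Itgb2 was followed most closely by Retnlg (r = 0.99), Emilin2 (r = 0.99) and Lrrc25 (r = 0.99), and Itgam by Cd80 (r = 0.97), Il10ra (r = 0.96) and Ifitm6 (r = 0.95). Retnlg, a neutrophil gene, averaged 8.64 CPM in AhR-poor papain and at most 0.333 CPM in the other groups. It reached 1 CPM on average through that group alone, so its r cannot be told apart from both genes being highest there. Other genes named in this paragraph were also near that minimum on average, such as Tagap (1.02 CPM), Cd80 (1.43), Ifitm6 (1.88) and Lrrc25 (2.13). Whether they too passed it through a single group was not examined, so the same limit may hold for their r. Itgax was followed by Csf1r (r = 0.98), Gng2 (r = 0.98) and Lrmp (r = 0.97), of which Csf1r encodes the CSF-1 receptor needed by Langerhans cells and macrophages. Itgae was followed by Trdv4 (r = 0.94), Klrk1 (r = 0.94) and Dennd3 (r = 0.93), of which Trdv4 is a gamma delta T cell receptor segment of the dendritic epidermal T cell and Klrk1 encodes the receptor NKG2D. For Itgal they were Ripor2 (r = 0.98), Tagap (r = 0.98) and Gm8995 (r = 0.98), for Itgb7 Myo1f (r = 0.98), Adamts10 (r = 0.97) and Coro1a (r = 0.97), of which Coro1a is one of the 8 pan-leukocyte genes, and for Itga4 Igf2 (r = 0.95), Steap3 (r = 0.94) and Rcsd1 (r = 0.92).

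Among the members themselves, correlations over the 16 libraries ran from r = 0.40 for Itgam with Itgax to r = 0.95 for Itgb2 with Itgal. Itgb2 followed its partners in the order Itgal (0.95), Itgam (0.85) and Itgax (0.76), and Itgb7 followed Itga4 (0.87) and Itgae (0.81). Itgb2 and Itgb7, which share no partner, had r = 0.93.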

How the data were processed

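RNA of epidermal cells from 16 mice was sequenced on a NovaSeq after a stranded poly(A) library preparation. Per the labels, reads were aligned to mm10 with STAR, and the deposited table holds a raw count for each of 50600 Ensembl gene identifiers in each library, as made by the authors. The counting tool, the annotation and the strand setting used for counting are not given in the sources used here, nor is the sequencing unit of each library among the 3 used, so no value within a unit could be computed.

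Groups were taken from the labels. The 22155 genes whose counts summed to 10 or more were fitted in edgeR 4.0.16 under R 4.3.3 with TMM factors, 1 mean per group over all 16 libraries, robust quasi-likelihood dispersions and the quasi-likelihood F test, followed by Benjamini-Hochberg adjustment over all genes. Calls needed a log2 fold change beyond 1 and an adjusted p under 0.01, the limits of the study. The SE of a log2 fold change is its size divided by the square root of F. Log2 CPM used a prior count of 2. With 3 counts as the floor, a library could show 0.0569 to 0.130 CPM, which covers counting error only. Libraries of a group came from different mice, and no pair agreed within sampling noise (lowest chi-square per degree of freedom 9.43). P-values measure the spread between mice, which shared a cage within a diet. The study itself tested with an earlier version of DESeq2, for which edgeR was used here instead. DESeq2 1.42.0, other scalings, filters and thresholds, and leaving out each library were tried as alternatives. The procedure was tested on simulated data.

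The members and all gene lists were chosen with earlier results of these data known. Besides the 7 members, the genes set to be named were the 4 of highest mean CPM in each list, the 3 genes most correlated with each member, Ptprc and Cd207. Not all of the 4 are given for every list, and which were left out did not follow a rule. Other genes were named after their values were seen. The level of 1 monocyte and macrophage marker, and the sum of that list, are not reported here. Levels per kilobase used the union of exons in GENCODE M21, and promoter sequences came from RefSeq (GRCm38.p6).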

Additional observations from a re-analysis of the deposited data

How the results depend on the processing

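No paired analysis was possible because the library codes are not shared between groups. Members called higher with vehicle between the diets numbered 0, against 2 by DESeq2, 2 with only the 8 libraries compared, 1 at an adjusted p below 0.05 and 0 to 2 with 1 library left out. With papain the 6 became 3 with only the 8 libraries and 5 to 6 with 1 library left out. For papain on the AhR-poor diet the 3 became 2 with only the 8 libraries (without Itgal), 4 with RLE factors, with filterByExpr, by DESeq2 and at an adjusted p below 0.05 (with Itgb7), and 3 to 4 with 1 library left out. On the I3C diet the 0 called lower became 1 (Itga4) by DESeq2, 1 at an adjusted p below 0.05 and 0 to 1 with 1 library left out. In the interaction the 0 called higher became 2 by DESeq2 and stayed 0 with 1 library left out. The log2 fold change of Itgb2 between the diets with papain lay between 3.37 and 4.27 with 1 library left out. Estimates near 0 changed sign without 1 library, and with 1 library left out Itga4 between the diets with vehicle ranged from -0.15 (T111) to 0.26 (T108), with -0.0084 without T102, Itgae after papain on the I3C diet from -0.15 (T106) to 0.35 (T109), with -0.08 without T111, Itgax after papain on the I3C diet from -0.89 (T106) to 0.022 (T115), and Itgax after papain on the AhR-poor diet from -0.12 (T105) to 0.16 (T103), with -0.05 without T100 and -0.02 without T102.

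Over all genes, the 352 called between the diets with vehicle numbered 595 by DESeq2, 582 at an adjusted p below 0.05 and 172 to 435 with 1 library left out, and the 4 called in the interaction numbered 200 by DESeq2, 10 without scaling factors, 60 at an adjusted p below 0.05, 96 without T112 and 23 without T106. Without a minimum fold, 2749 genes were called higher and 2228 lower after papain on the AhR-poor diet, 2821 and 2864 on the I3C diet, and 1802 and 680 between the diets with papain, where 22 were called lower with it. The cause of these changes was not tested. Diet and cage cannot be told apart, each group has 4 mice, members had as few as 19 counts in a library, and the library totals limit the precision of the low I3C values.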

Other observations

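Itgam and Itgax lie next to each other on chromosome 7 and both encode partners of beta 2, and the ratio of their levels per kilobase differed between groups. It was 0.757, 0.603, 0.546 and 0.695 in the I3C vehicle libraries and 0.263, 0.289, 0.396 and 0.293 in the AhR-poor vehicle libraries, so the diets did not overlap. After papain on the AhR-poor diet it was 1.20, 1.84, 1.44 and 1.07, above every vehicle library. After papain on the I3C diet it was 0.639 in T106 and 0.895 in T113, near vehicle, and 3.07 in T114 and 4.37 in T115, above all other libraries. The ratio rests on the level of Itgam, most of whose exonic bases also belong to another gene model.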
